A study of Homo sapiens with 12 samples.

Results

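The AP-1 and EGR immediate early factors are described here as 10 genes chosen by symbol: FOS, FOSB, FOSL1, FOSL2, JUN, JUNB, JUND, EGR1, EGR2 and EGR3. All 10 were found among the 16383 genes of the deposited table, and all 10 reached the mean of 10 normalized counts needed for testing, which 11242 genes reached. They were measured by sequencing of poly(A) RNA from wild-type IMR90 fibroblasts, a widely used line from human lung, grown in medium with fetal bovine serum. There were 4 groups of 3 libraries. Proliferating cells had no treatment. The other 9 libraries came from cells that had received 20 Gy of ionizing radiation over 10 min, which makes fibroblasts senescent, and that were harvested on day 11. Of these, 3 libraries each came from cells given DMSO, the solvent control, 2 µM palbociclib, which blocks the cell cycle kinases CDK4 and CDK6, or 2 µM ruxolitinib, which blocks the cytokine receptor kinases JAK1 and JAK2. The inhibitors were given on days 4, 6, 8 and 10, and no days are listed for DMSO. No irradiated cells without solvent and no unirradiated cells with an inhibitor were analysed here. Proliferating and DMSO cells thus differ in at least radiation and solvent together, and no harvest day is listed for proliferating cells. Each group rests on 1 cell line, and no label says that the 3 samples of a group came from separate cultures, so the p-values below measure only the spread between these samples, which may be technical.

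AP-1 is a pair of leucine zipper proteins that grips DNA as a dimer. JUN, JUNB and JUND can pair with each other or with a FOS protein, whereas FOS, FOSB, FOSL1 (Fra-1) and FOSL2 (Fra-2) need a JUN partner, and the makeup of the dimer sets which genes respond and how strongly. EGR1, EGR2 and EGR3 are zinc finger factors that bind GC-rich sites and are held in check by the corepressors NAB1 and NAB2. Many of these genes are silent or low in resting cells and are switched on within minutes by serum, growth factors or stress through the MAP kinases, the ternary complex factors and the serum response factor SRF, after which their short-lived RNAs fade. In fibroblasts AP-1 is known for driving collagenase and cytokine genes, and in senescent cells it is known as a factor that helps open the enhancers of the secretory program.

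The deposited values are gene read counts divided by a size factor per library, called normalized counts below, and fold changes are log2 differences of (normalized count + 1) from a limma model of the 4 group means, with p-values adjusted over all 11242 genes and a call at an adjusted p under 0.05. Reads recovered from the table were 17234093 to 20766998 per proliferating library, 14106799 to 16503624 with DMSO, 17575263 to 21762412 with palbociclib and 18713012 to 21750962 with ruxolitinib. Of 12 fibroblast markers, 12 had a mean of at least 10, and their summed level was 848319 to 873173 in proliferating libraries, 427263 to 437665 with DMSO, 679762 to 702218 with palbociclib and 535601 to 539593 with ruxolitinib. Markers of other cells summed to far less: 3 of 9 epithelial markers reached a mean of 10 and the list summed to between 216 and 697, 2 of 7 endothelial markers (1682 to 4382), 3 of 8 leukocyte markers and 5 of 6 smooth muscle and pericyte markers (7546 to 16024). Most of the fibroblast sum is COL1A1 and COL1A2, at means of 401324 and 226318 in proliferating cells and 165728 and 126871 with DMSO. The endothelial sum is mostly TEK, at a mean of 1832 in proliferating cells, so both sums follow few genes. The leukocyte list summed to 555 to 579 in proliferating libraries, 1254 to 1338 with DMSO, 704 to 821 with palbociclib and 1118 to 1182 with ruxolitinib, in the same direction as the members that rose with DMSO and fell with palbociclib. Most of this sum is CD68, a lysosomal protein gene that fibroblasts also express, at a mean of 1232 with DMSO. None of the markers was at 0 in every library, and the part of these markers in the results below was not tested. Summed normalized counts were lower with DMSO (16554900 ± 192963, SD, n = 3) and ruxolitinib (16844900 ± 60521) than in proliferating cells (19409400 ± 336467) or with palbociclib (19369900 ± 68982). With all libraries brought to one total, the median log2 change of all genes would move by 0.23 in DMSO against proliferating cells, by -0.23 in palbociclib against DMSO and by -0.20 for palbociclib against ruxolitinib, and with one upper quartile it would move by 0.15, -0.06 and -0.08. Changes are given on the authors' scaling.

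Single libraries were often the highest or the lowest of their group for these genes. Library A118 was the highest of the 3 DMSO libraries for 9 of the 10 members, against 34.1% of all genes tested, and for 17 of 27 other immediate early genes. Library A120 was the highest palbociclib library for 7 of the 10, against 40.8% of all genes, and the lowest for 3. Library A119 was the lowest palbociclib library for 7 of the 10, against 38.2%. With ruxolitinib A122 was the highest for 7 of the 10, against 28.9%, and A123 the lowest for 8, against 33.4%. The median member lay 0.16 above its group mean in A118 and 0.11 above it in A120 on the log2 scale, and its deviation was -0.15 in A119, while the median of all genes tested stayed within 0.01 of the group mean in every library. Results are therefore also given without A118 and A120 together, an alternative chosen after the data were seen.

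**Figure D1:**
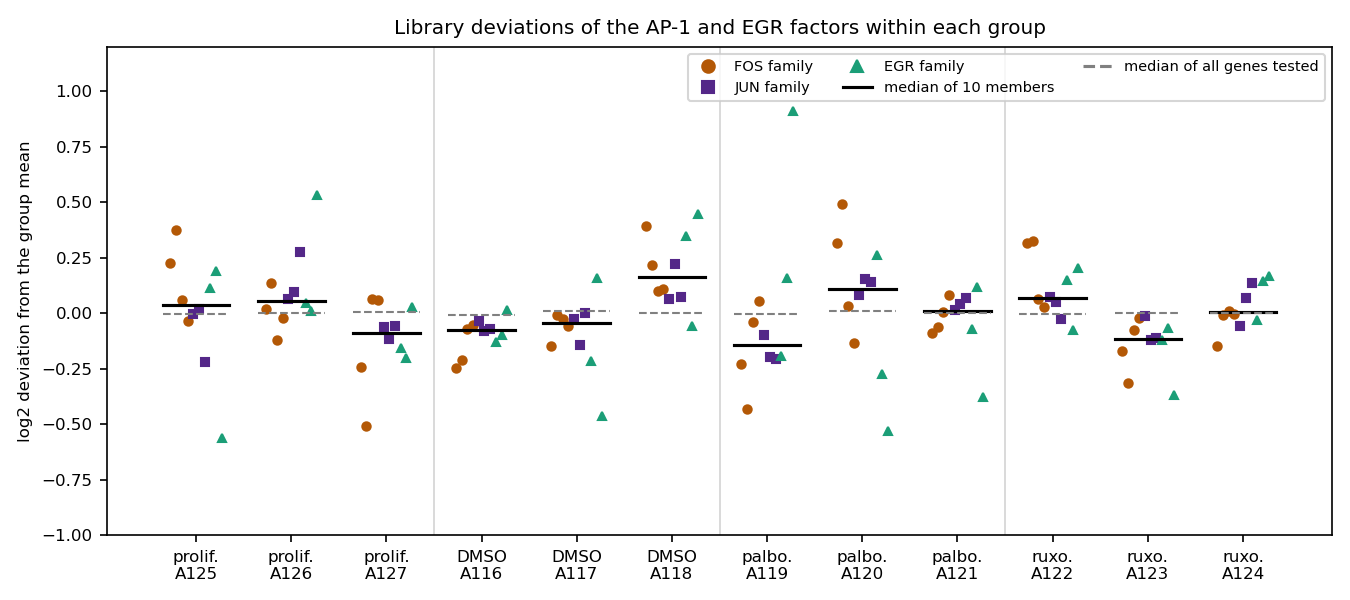
Deviation of each member from its group mean (y axis, log2 scale) in each of the 12 libraries (x axis), with circles for FOS, squares for JUN and triangles for EGR genes, a black bar for the median of the 10 members and a dashed line for the median of all genes tested. In A118 9 of the 10 members lie above 0, and in A123 none does.

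Per kilobase of annotated exon, which allows levels to be compared roughly between genes, FOSL1 was the most abundant of the 10 in every group, followed by JUN and JUND. The length counts every annotated exon of a gene, whichever transcript is expressed, so this order and the shares below rest on that annotation. FOSL1 stood at 3346 normalized counts per kb in proliferating cells, 1451 under DMSO, 1113 with palbociclib and 1343 with ruxolitinib, and JUN at 903, 920.0, 820.3 and 853 in the same order. JUNB, EGR1 and FOSL2 came next, FOS followed at 80.1, 139.9, 115 and 94.0 per kb, and FOSB, EGR2 and EGR3 were the lowest, all under 30 per kb. In DMSO cells JUND and JUNB, and JUNB and EGR1, are neighbours in this order whose libraries overlapped. With palbociclib and with ruxolitinib JUNB and EGR1 overlapped, with palbociclib FOSB and EGR2 overlapped, and in proliferating cells EGR2 and FOSB did. The other neighbouring pairs did not overlap in any of the 4 groups.

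Summed per kb, the 4 FOS genes reached 3742 ± 240 (SD, n = 3) in proliferating cells and 1876 ± 146 with DMSO, because FOSL1 makes up most of this sum. FOSL1 held 89.4% ± 0.61 of it in proliferating cells, 77.4% ± 1.2 under DMSO, 76.6% ± 0.24 with palbociclib and 79.6% ± 0.65 with ruxolitinib. The share of FOS was 2.15% ± 0.37 in proliferating cells, against 7.39% ± 1.3 with DMSO, 7.92% ± 1.4 with palbociclib and 5.55% ± 0.84 with ruxolitinib. Among the JUN genes, the share of JUNB was 18.6% ± 1.1 in proliferating cells, 29.8% ± 2.0 under DMSO, 24.6% ± 0.65 with palbociclib and 27.0% ± 0.73 with ruxolitinib. JUN held 46.1% of that sum in proliferating cells and 39.7% with DMSO. EGR1 held 98.0% of the EGR sum in proliferating cells and between 96.6% and 97.4% in the irradiated groups, so the summed EGR level is nearly that of EGR1. These are shares of RNA levels and do not give the makeup of the protein dimers.

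**Figure D2:**
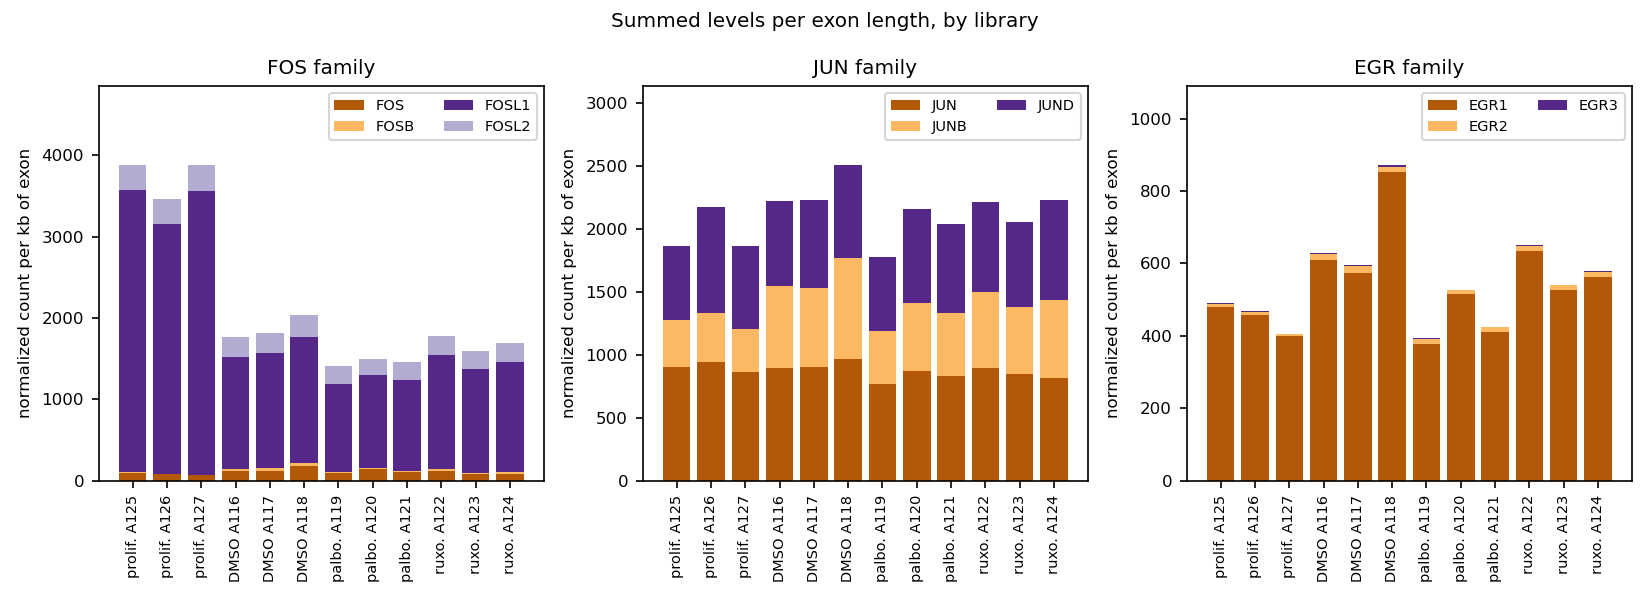
Stacked levels of the FOS, JUN and EGR genes (y axis, normalized counts per kb of exon) in each of the 12 libraries (x axis). The FOS panel is filled mostly by FOSL1 and falls from a mean of 3742 in proliferating libraries to 1876 with DMSO, and the EGR panel is nearly all EGR1, with A118 the tallest bar.

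The first comparison asked how the 10 genes differ between irradiated senescent cells given DMSO and proliferating cells. FOS, FOSB, JUNB, EGR1 and EGR2 rose, FOSL1 and FOSL2 fell, and JUN, JUND and EGR3 were not called. Called genes made up 72.4% of all genes tested (33.0% higher and 39.3% lower), so 7 of 10 is close to the background, and groups without overlap, 7 of the 10 here, made up 75.1% of all genes. At the same total 46.9% of all genes were called higher and 26.4% lower, and at the same upper quartile 42.1% and 30.4%. The median log2 change was 0.56 over the 10 members, or 0.36 without A118, and -0.05 over all genes tested. All 3 tested leukocyte markers rose too, with a median of 1.16. These are bulk libraries, so a change in the share of cells that express a gene and a change of its RNA per cell cannot be told apart.

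FOS, the founding member of its family, was at 296, 256 and 213 normalized counts in the proliferating libraries A125, A126 and A127 and at 368, 394 and 575 in the DMSO libraries A116, A117 and A118. All DMSO libraries lay above all proliferating ones, with A118 well above its replicates. The log2 fold change was 0.79 (SE 0.18, adjusted p 0.00115). FOSB, a close relative whose RNA is usually low at rest, was at 39.4, 33.3 and 20.9 in proliferating cells and at 134, 154 and 180.4 with DMSO. The groups were far apart, and this was the largest change among the members, a mean of 156.0 ± 23.4 against 31.2 ± 9.41, or 5.00-fold (log2 2.32, SE 0.25, adjusted p 5.98e-07).

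FOSL1 (chr11:65892049-65900545 in GENCODE v44, hg38), a more stable FOS protein known for its role in cell motility and invasion, moved the other way. It was at 6564, 5800.3 and 6580.0 normalized counts in proliferating cells and at 2602, 2683 and 2928 with DMSO, with a wide gap between the groups. The log2 fold change was -1.20 (SE 0.06, adjusted p 8.82e-11). FOSL2 (chr2:28392858-28417317), related to FOSL1 and known in bone and connective tissue, was at 2163, 2183 and 2313 in proliferating cells and at 1775, 1772 and 1987 with DMSO. The change was small, -0.27 (SE 0.06, adjusted p 0.00152), and it was not called with all libraries at the same total (-0.04, adjusted p 0.582) or at the same upper quartile (-0.12, adjusted p 0.109).

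JUNB, a JUN protein often set against JUN in growth control, was at 677, 714 and 615 normalized counts in proliferating cells and at 1192, 1141 and 1466 with DMSO, with no overlap (log2 fold change 0.91, SE 0.10, adjusted p 8.45e-07). In the annotated JUNB exon, 259 bases (14.2%) lie opposite an exon of HOOK2, which encodes a linker of organelles to microtubules, and whether reads were counted by strand is not given in the sources used here. HOOK2 was at a mean of 106 in proliferating cells and 241 with DMSO (log2 fold change 1.19, adjusted p 3.82e-07). This rise was smaller in counts than that of JUNB but larger as a fold change, and the part of shared reads was not tested. JUN (chr1:58780791-58784047), the partner of most FOS proteins, was at 3266, 3421 and 3129 in proliferating cells and 3249, 3267 and 3486 with DMSO. The ranges overlapped, and the log2 difference of 0.03 had a 95% interval of -0.10 to 0.15 (adjusted p 0.684). JUND (chr19:18279694-18281622), the JUN protein that is abundant in resting cells, was at 1140.3, 1610.3 and 1275 in proliferating cells and 1295, 1361 and 1433 with DMSO, with a difference of 0.04 (interval -0.20 to 0.27, adjusted p 0.779). JUN and JUND were called higher with all libraries at the same total (0.26, adjusted p 0.00148, and 0.27, adjusted p 0.0473), and JUN also at the same upper quartile (0.18, adjusted p 0.0190), so that whether they changed rests on the scaling.

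EGR1, the most studied EGR factor and a regulator of growth factor and matrix genes, was at 1508, 1438 and 1249 normalized counts in proliferating cells and at 1913, 1803 and 2672 with DMSO. The groups did not overlap, and A118 was the highest by far (log2 fold change 0.59, SE 0.14, adjusted p 0.00109). EGR2, known best for its role in the cells that myelinate nerves, was at 29.1, 25.5 and 21.9 in proliferating cells. With DMSO it was at 57.4, 68.7 and 59.0, a log2 change of 1.25 (SE 0.18, adjusted p 1.63e-05). EGR3, an inducible relative, was close to the limit for testing, at 7.26, 16.6 and 11.4 in proliferating cells and 16.8, 11.8 and 23.1 with DMSO. These ranges overlapped (0.54, interval -0.38 to 1.45, adjusted p 0.273), so no difference was detectable at this depth. Without A118 and A120, 7 members were called in this comparison, as many as with them, and the change of EGR1 was 0.41 without A118, against 0.59 with all libraries.

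**Figure D3:**
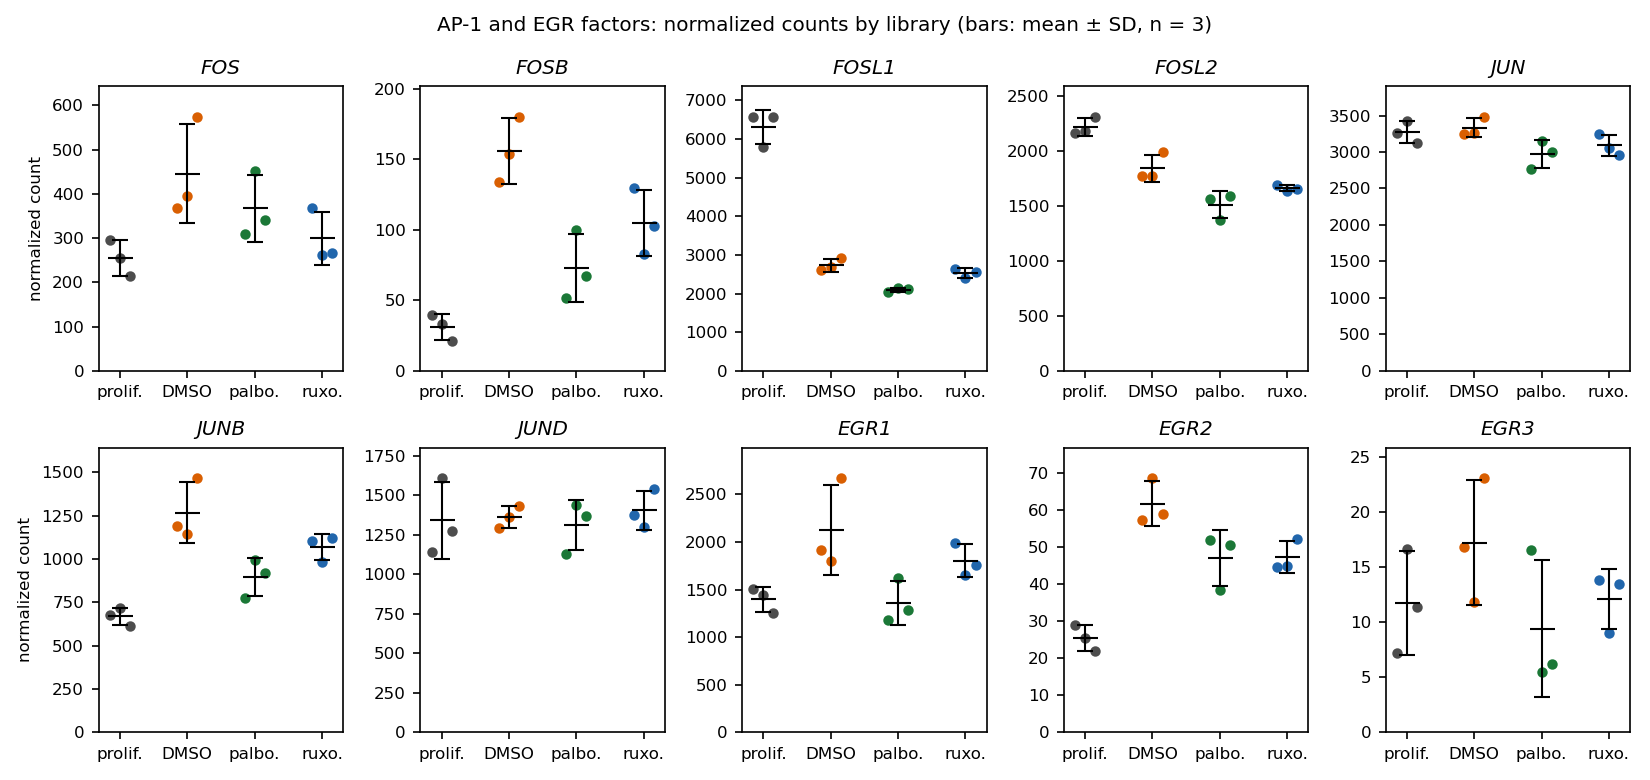
Normalized counts (y axes, each from 0) of the 10 members in the 3 libraries of each group (points), with the mean and the SD as bars. FOSL1 drops from a mean of 6315 in proliferating cells to 2738 with DMSO, FOSB climbs from 31.2 to 156.0, and JUN and JUND stay within overlapping ranges in these groups.

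The promoters of the 5 members that rose are shown because they moved together in this comparison. The 250 bases before a gene's annotated start were taken from RefSeq (GRCh38.p14), where 8 of the 10 members were matched by symbol. FOSL1, which fell in this comparison, and EGR3 had no window and were not searched. The letters searched on both strands were TGACTCA and TGAGTCA for an AP-1 site, TGACGTCA for the cyclic AMP response element (CRE), GCGTGGGCG and GCGGGGGCG for an EGR site, TATAAA for the TATA box and the SRF-binding CArG box by its usual form. The letters TATAAA can lie inside a CArG box, which none of the matches below did, and no other pair of patterns contains each other. Capitals mark the matches.
FOS (chr14:75278578-75278827, plus strand): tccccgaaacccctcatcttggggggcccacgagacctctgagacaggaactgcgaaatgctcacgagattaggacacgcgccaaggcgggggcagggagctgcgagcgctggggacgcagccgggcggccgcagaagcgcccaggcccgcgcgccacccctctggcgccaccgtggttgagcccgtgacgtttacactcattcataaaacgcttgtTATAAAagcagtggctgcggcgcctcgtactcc
FOSB (chr19:45467746-45467995, plus strand): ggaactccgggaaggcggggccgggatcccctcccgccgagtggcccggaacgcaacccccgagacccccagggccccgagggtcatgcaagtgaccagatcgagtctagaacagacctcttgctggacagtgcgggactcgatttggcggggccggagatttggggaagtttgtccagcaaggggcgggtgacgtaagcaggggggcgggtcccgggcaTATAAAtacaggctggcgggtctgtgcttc
JUNB (chr19:12791236-12791485, plus strand): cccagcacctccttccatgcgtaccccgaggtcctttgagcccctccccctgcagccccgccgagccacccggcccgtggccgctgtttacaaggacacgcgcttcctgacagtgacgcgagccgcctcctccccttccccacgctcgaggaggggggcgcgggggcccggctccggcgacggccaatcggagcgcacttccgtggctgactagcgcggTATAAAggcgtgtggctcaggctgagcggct
EGR1 (chr5:138465229-138465478, plus strand): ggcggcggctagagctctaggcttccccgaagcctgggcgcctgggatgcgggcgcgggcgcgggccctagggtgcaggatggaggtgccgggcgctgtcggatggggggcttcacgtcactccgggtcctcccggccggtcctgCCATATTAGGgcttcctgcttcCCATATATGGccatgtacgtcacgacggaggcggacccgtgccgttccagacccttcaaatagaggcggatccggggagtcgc
EGR2 (chr10:62816367-62816616, minus strand): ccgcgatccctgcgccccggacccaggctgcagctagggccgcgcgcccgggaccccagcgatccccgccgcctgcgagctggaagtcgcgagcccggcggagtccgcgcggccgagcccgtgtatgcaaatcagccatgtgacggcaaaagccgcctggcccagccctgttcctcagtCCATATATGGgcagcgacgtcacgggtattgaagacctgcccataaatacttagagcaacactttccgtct
The letters of the TATA box begin 33 bases before the start of FOS, 30 before that of FOSB and 31 before that of JUNB, and 10.7% of the 35116 windows of the same length hold them. CArG boxes begin 105 and 83 bases before the start of EGR1 and 71 before the third annotated start of EGR2, against a share of 1.16% over all windows. The windows at the other 2 starts of EGR2 and those of FOSL2 and JUN held no match, and that of JUND, which was not called here, held a CRE beginning 200 bases before the start (1.65% of all windows). No AP-1 site (4.20% of all windows) and no EGR site (5.37%) was found in the windows of these 8 genes. A match is a run of letters and not a measured binding site, and sites further away, where several of these genes are known to carry them, were not searched.

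Around these 10 genes, other families of the same pathways were counted in the same fit. Of 10 tested AP-1 relatives of the ATF, BATF and MAF type, 6 rose and 3 fell with DMSO. ATF3, a stress-induced factor that can pair with JUN, rose from 95.4 ± 7.27 to 1152 ± 15.8 (log2 fold change 3.58, adjusted p 8.49e-15), and BATF2 rose by 3.69. JDP2, which represses AP-1 sites as a JUN partner, went from 727 ± 61.7 down to 424 ± 18.7 (-0.78, adjusted p 1.51e-07), and BATF3 fell by 1.34. Of 27 other immediate early genes, 10 rose and 12 fell, with 15 higher and 7 lower at the same total, so which direction was more frequent depended on the scaling. BTG2 (log2 3.61), the nuclear receptor NR4A3 (3.40) and KLF4 (2.62) had the largest rises, and ZFP36L2 (-0.83), CCN1 (-0.69) and MYC (-0.69) the largest falls. Of 27 genes of the upstream path, the RAS, RAF, MAP kinase and SRF genes, 3 rose and 19 fell, or 6 and 11 at the same total. MAPK3, which encodes ERK1, rose by 1.17, and the SRF cofactor MYOCD (-1.44) and NRAS (-1.12) fell. Of the EGR corepressors, NAB2 fell from 1276 ± 59.7 to 693 ± 77.5 (-0.88, adjusted p 5.91e-08), and NAB1, at 789 and 823, was not called, although NAB1 was called higher under both other scalings.

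Of 23 tested genes known as AP-1 targets, 18 rose and 5 fell with DMSO, and the counts at the same total were 18 and 3. The neutrophil chemokine gene CXCL8 (log2 4.54) and EREG, which encodes the growth factor epiregulin (3.28), rose the most of those named, and IL11 (-0.51), HMGA1 (-0.43) and ITGA5 (-0.42) fell. The median of this list was 1.54, against -0.05 over all genes tested. Of 15 genes known as EGR targets, 8 rose and 6 fell, with CDKN1A (3.11), ICAM1 (1.95) and FGF2 (1.41) the highest and PDGFA (-1.14) and ID3 (-0.54) the lowest of those named. Many of these targets also answer to NF-kB or other factors, and the lists say nothing of which factor acted here.

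Palbociclib was compared with DMSO in irradiated cells to see which of the 10 genes the CDK4/6 inhibitor moved. None was higher and 6 fell: FOSB, FOSL1, FOSL2, JUN, JUNB and EGR1. The background was 48.3% of genes called, with 26.0% higher and 22.3% lower, and 54.8% of genes without overlap between the groups, where 7 of the 10 members had none. The median change was -0.39 over the members and 0.02 over all genes tested, and the estimate was below 0 for all 10 members. All 3 tested leukocyte markers fell too, with a median of -1.14. This comparison uses the same DMSO libraries as the one above, A118 included, so the 2 are not independent.

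FOSB had the largest fall, to 52.0, 99.6 and 67.5 normalized counts in the palbociclib libraries A119, A120 and A121, against 134 to 180.4 with DMSO. No palbociclib library reached the DMSO range, but all lay above the proliferating one (log2 fold change -1.12, SE 0.25, adjusted p 0.00190). EGR1 was at 1181, 1619 and 1286, against 1803 to 2672 with DMSO, a change of -0.64 (SE 0.14, adjusted p 0.00131) that was -0.46 without A118. JUNB was at 777, 994 and 919, against 1141 to 1466, a change of -0.50 (SE 0.10, adjusted p 0.00100). HOOK2, whose exon lies opposite, was called higher by a small margin (0.32, interval 0.05 to 0.58, adjusted p 0.0468). With all libraries at the same total, the median change of all genes would move by -0.23 in this comparison. The part of reads shared by JUNB and HOOK2 was not tested here either. Beside the proliferating range of EGR1, 1249 to 1508, A121 lay within it, A120 above it and A119 below it.

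FOSL1 was at 2039.5, 2149 and 2109.7 with palbociclib, below the DMSO range of 2602 to 2928 and further from the proliferating level (log2 fold change -0.38, SE 0.06, adjusted p 0.000135). FOSL2 was at 1565, 1371 and 1594, against 1772 to 1987 with DMSO (-0.29, SE 0.06, adjusted p 0.00180). JUN had a smaller change, at 2773, 3145 and 3001 against 3249 to 3486, a log2 change of -0.17 (SE 0.06, adjusted p 0.0278). The call of JUN was lost without A118 (adjusted p 0.119), without A119 (0.110) and without A121 (0.0530), and also without a variance trend in limma (0.0538) and in a fit of these 2 groups alone (0.0540). The other 5 calls held when each of these libraries was left out in turn.

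FOS, JUND, EGR2 and EGR3 were not called with palbociclib. FOS was at 309, 452 and 341, within reach of the DMSO range of 368 to 575 (log2 difference -0.27, 95% interval -0.66 to 0.12, adjusted p 0.238). Without A118, which holds the 575, the difference of FOS was -0.072. JUND was at 1132, 1438 and 1369 (-0.06, interval -0.30 to 0.18, adjusted p 0.681). EGR2 was at 52.0, 38.3 and 50.6, all below the DMSO range of 57.4 to 68.7, but its difference of -0.39 did not pass (adjusted p 0.0889), although it did in limma without a variance trend (0.0368). EGR3 was at 16.6, 5.47 and 6.22, and its difference of -0.92 (interval -1.83 to 0.00) had an adjusted p of 0.0919. The adjusted p of EGR3 was 0.0138 without A119, the library that holds its high value. With all libraries at the same total, all 10 members were called lower, where 46.0% of all genes were called lower and 8.36% higher. At the same upper quartile 6 members were called lower, where 27.2% of all genes were lower and 19.4% higher. Without A118 and A120 the count was 6, and the change of FOSL2 was -0.17, against -0.29 with all libraries.

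Of the 10 AP-1 relatives, 3 rose and 3 fell with palbociclib, or 1 and 7 at the same total. ATF3 fell to 198 ± 3.73 (log2 fold change -2.54, adjusted p 1.70e-12), and BATF2 fell by 2.92, whereas JDP2 rose to 740.3 ± 45.0 (0.80, adjusted p 5.16e-07), beside 727 in proliferating cells, and MAFK and MAFG rose by 0.30 and 0.19. At the same total only 1 relative was called higher, and neither MAFK nor MAFG was. The change of MAFG was -0.03 there. Of the 27 other immediate early genes, 5 rose and 15 fell, or 2 and 17 at the same total. NR4A3 (-1.82), PTGS2 (-1.58) and BTG2 (-1.45) fell the most of those named, and CCN2 (0.87), DUSP1 (0.45) and MYC (0.41) rose the most, of which MYC was not called at the same total (0.18, adjusted p 0.0535). Of the 27 upstream genes, 6 rose and 4 fell, but 1 rose and 18 fell at the same total, so no direction can be given for that list. MAPK9, which encodes the kinase JNK2, rose by 0.44 and MYOCD fell by 0.92.

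Of the 23 AP-1 targets, 5 rose and 13 fell with palbociclib, or 0 and 14 at the same total. CXCL8 fell to 193 ± 23.3 (log2 fold change -3.13) and IL1B to 6.86 ± 3.69 (-3.59), while TIMP1, an inhibitor of matrix metalloproteinases, rose by 0.40. CCND1, the cyclin D1 gene, was called higher (0.23). At the same total no gene of this list was called higher, TIMP1 included, and CCND1 was not called, with a change of -0.00093. Of the 15 EGR targets, 6 rose and 5 fell, or 3 and 9 at the same total. THBS1 (0.75) and FLT1 (0.47) rose, and NFKBIA (-1.06), CDKN1A (-0.98) and PDGFB (-0.60) fell. The corepressor NAB1 fell by 0.31.

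Ruxolitinib was compared with DMSO to see whether the JAK inhibitor moved the same genes. Limma called none of the 10 members, of which 4 had an unadjusted p under 0.05, edgeR called none and DESeq2 called FOS. The background was low too, with 4.52% of genes called (1.10% higher and 3.42% lower). The groups did not overlap for 5 of the 10 members and for 31.9% of all genes, and the estimate was below 0 for 9 of the 10, with a median of -0.23 against 0.00 over all genes tested. Without A118, the highest DMSO library for 9 of the 10, the median of the members was -0.11, the difference of EGR1 was -0.046 in place of -0.22 and that of JUNB -0.13 in place of -0.24.

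FOS was at 369, 263 and 267 normalized counts in the ruxolitinib libraries A122, A123 and A124, against 368, 394 and 575 with DMSO, so that the groups overlapped at their edges. The log2 difference was -0.56 (95% interval -0.95 to -0.17, adjusted p 0.110), and DESeq2 gave an adjusted p of 0.0398. FOSB was at 129.6, 82.8 and 102.9, below the DMSO range of 134 to 180.4 (-0.58, interval -1.11 to -0.04, adjusted p 0.276). JUNB, at 1106, 982 and 1121, also lay below its DMSO range of 1141 to 1466 (-0.24, interval -0.46 to -0.02, adjusted p 0.269), as did FOSL2 at 1692, 1637 and 1657 (-0.15, interval -0.29 to -0.01, adjusted p 0.273).

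EGR1 was at 1994, 1654 and 1763, overlapping the DMSO libraries (-0.22, interval -0.51 to 0.07, adjusted p 0.483). EGR2 was at 44.8, 45.0 and 52.3, below the DMSO range but not called (-0.37, interval -0.76 to 0.02, adjusted p 0.344), and EGR3 at 13.9, 9.0 and 13.5 overlapped it (-0.45, interval -1.37 to 0.47, adjusted p 0.688). FOSL1 was at 2649, 2402 and 2551 (-0.11, interval -0.24 to 0.02, adjusted p 0.425). JUN was at 3247, 3061 and 2963, just below the DMSO range (-0.11, interval -0.23 to 0.01, adjusted p 0.394), and JUND at 1379, 1299 and 1541 (0.04, interval -0.19 to 0.28, adjusted p 0.912). When only the DMSO and ruxolitinib libraries were fitted, 4 members were called lower, FOS (adjusted p 0.00153), FOSB (0.00524), JUNB (0.0128) and FOSL2 (0.0208), at the same sizes, where 16.4% of all genes were called in that fit. In the 4-group fit, leaving out any 1 of the 6 libraries gave 0 calls, as did leaving out A118 and A120. The absence of calls in the 4-group fit does not show that ruxolitinib left these genes unchanged.

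Around them, 3 of the 10 AP-1 relatives fell with ruxolitinib and none rose. BATF2 went from 111 ± 10.8 down to 19.5 ± 7.85 (log2 fold change -2.53, adjusted p 0.000231), ATF3 to 665 ± 33.1 (-0.79, adjusted p 4.23e-06) and MAFF, a small MAF protein, to 1221 ± 63.7 (-0.34, adjusted p 0.00740). Of the 27 other immediate early genes, 7 fell and 1 rose, NR4A2 (0.41, adjusted p 0.0469), a call lost under both other scalings, with PTGS2 (-0.55), KLF10 (-0.51) and CSRNP1 (-0.29) among those that fell. Limma called none of the 27 upstream genes, of which 1 had an unadjusted p under 0.05. Of the AP-1 targets, LIF rose by 0.29 (adjusted p 0.0414) and none fell, against 0 and 1 at the same total, and of the EGR targets ICAM1 (-0.42), VEGFA (-0.29) and F3 (-0.17) fell and none rose, or 2 fell and 1 rose at the same upper quartile.

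**Figure D4:**
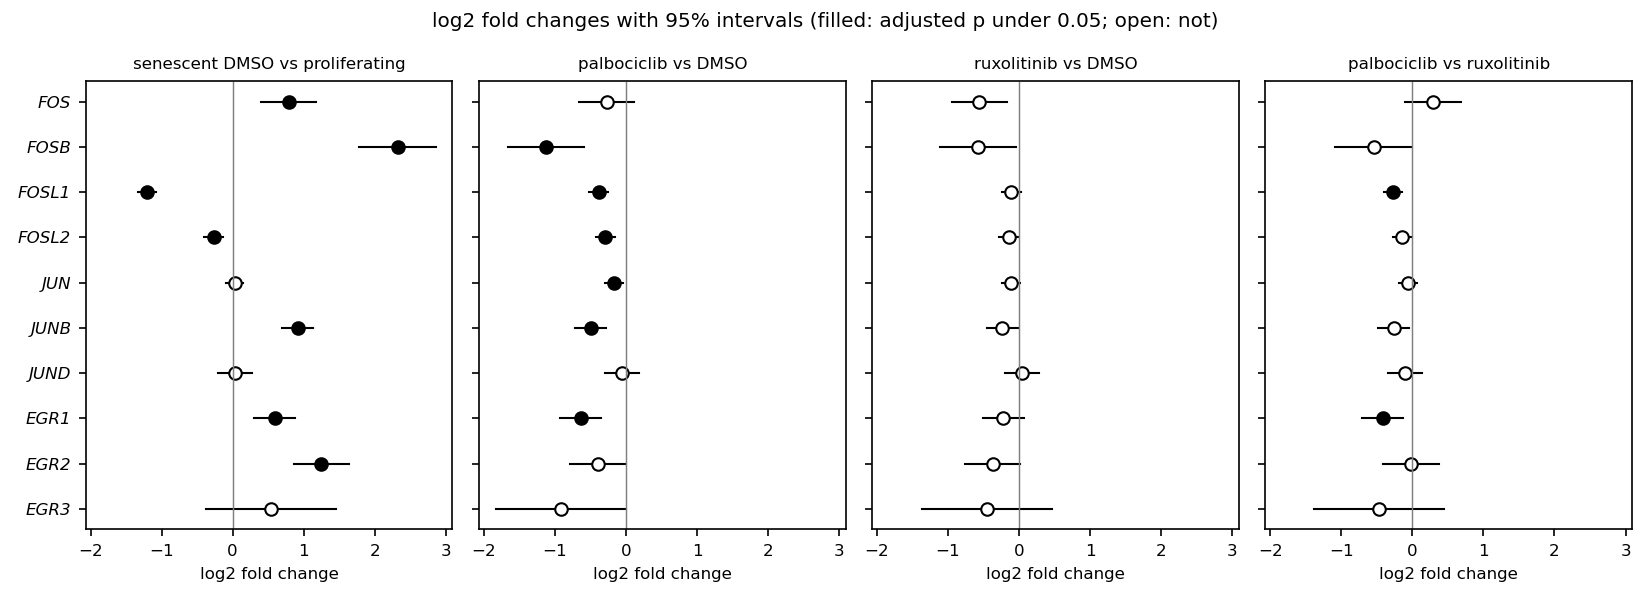
Log2 fold changes (x axes) with 95% intervals of the 10 members in 4 comparisons, filled where the adjusted p was under 0.05. With DMSO against proliferating cells 5 members lie above and 2 below 0 with filled points, with palbociclib against DMSO 6 lie below, and with ruxolitinib against DMSO none is filled.

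The inhibitors were also set against each other, since they were given at the same dose and on the same days. FOSL1 and EGR1 were lower with palbociclib than with ruxolitinib and no member was higher, so 2 of 10 were called where 40.4% of all genes were (22.8% higher and 17.6% lower), and 3 of the 10 did not overlap, against 51.8% of all genes. At the same total 7 members were called lower, with FOSB, FOSL2, JUN, JUNB and JUND beside FOSL1 and EGR1, where 40.3% of all genes were lower and 7.53% higher. At the same upper quartile FOSL2 and JUNB were added, where 24.0% of all genes were lower and 15.1% higher. FOSL1 was at 2039.5 to 2149 with palbociclib and at 2402 to 2649 with ruxolitinib (log2 fold change -0.27, SE 0.06, adjusted p 0.00273), a call that held when any 1 library was left out. EGR1 was at 1181 to 1619 and at 1654 to 1994 (-0.41, SE 0.14, adjusted p 0.0240), and its call was lost without A119 (adjusted p 0.0769), A121 (0.0789), A122 (0.106) or A124 (0.0525), and in limma without a variance trend (0.0667).

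The remaining differences between the inhibitors were not called on the authors' scaling, and their intervals hold for that scaling only. At the same total, the changes of JUN (-0.26) and FOSL2 (-0.34) lay outside these intervals. JUNB was closest to a call (-0.26, interval -0.48 to -0.04, adjusted p 0.0554). It was called in 8 of 17 alternatives, among them edgeR (adjusted p 0.0371), DESeq2 (0.0289) and the fit of these 2 groups alone (0.0494), so its call rests on the fit. It was followed by FOSL2 (-0.14, interval -0.28 to -0.0040, adjusted p 0.0933) and FOSB (-0.55, interval -1.08 to -0.01, adjusted p 0.0968), of which FOSL2 was also called by edgeR (adjusted p 0.0459). For FOS the estimate was above 0 (0.29, interval -0.10 to 0.68, adjusted p 0.217), the only member for which it was. EGR2 was at nearly the same mean with both (47.0 and 47.4, difference -0.02, interval -0.41 to 0.37). JUN (-0.06, interval -0.18 to 0.07), JUND (-0.10, interval -0.34 to 0.13) and EGR3 (-0.47, interval -1.38 to 0.45) were not called either. The count was 4 without A120, where JUNB and FOSB were called too, and 1 to 4 over all single libraries left out.

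Both inhibitor groups were lastly compared with proliferating cells, which had neither radiation nor solvent. With palbociclib 4 members were higher and 3 lower, where 73.8% of all genes were called (35.2% higher and 38.6% lower) and 70.9% did not overlap, 6 of the 10 members among them. FOSB (log2 fold change 1.20, SE 0.25, adjusted p 0.000506), EGR2 (0.85, SE 0.18, adjusted p 0.000586), FOS (0.52, SE 0.18, adjusted p 0.0183) and JUNB (0.42, SE 0.10, adjusted p 0.00172) were higher. FOSL1 (-1.59, SE 0.06, adjusted p 2.35e-12) and FOSL2 (-0.56, SE 0.06, adjusted p 1.09e-06) were lower, and JUN was called lower by a small margin (-0.14, adjusted p 0.0416), with overlapping groups. JUN lost its call in 10 of 17 alternatives and FOS lost it without A120 (adjusted p 0.0818) or A127 (0.0868). EGR1 did not differ beyond the spread (-0.05, interval -0.34 to 0.24, adjusted p 0.767).

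With ruxolitinib 4 members were higher and 2 lower than in proliferating cells, where 72.2% of all genes were called (32.6% higher and 39.5% lower) and 76.2% did not overlap, against 6 of the 10 members. FOSB (log2 fold change 1.74, SE 0.25, adjusted p 1.40e-05), EGR2 (0.87, SE 0.18, adjusted p 0.000493), JUNB (0.68, SE 0.10, adjusted p 2.23e-05) and EGR1 (0.37, SE 0.14, adjusted p 0.0237) were higher, and FOSL1 (-1.32, SE 0.06, adjusted p 2.89e-11) and FOSL2 (-0.42, SE 0.06, adjusted p 2.81e-05) were lower. The call of EGR1 was lost without A122 (adjusted p 0.104) or A127 (0.0998), and in limma without a variance trend (0.0627). FOS was not called (0.23, interval -0.16 to 0.61, adjusted p 0.277), but at the same total it was called higher (0.43, adjusted p 0.0479), as was JUND (0.28, adjusted p 0.0359). At that scaling 44.8% of all genes were called higher and 27.9% lower, and at the same upper quartile 42.4% and 29.8%. On the authors' scaling FOSB, EGR2 and JUNB were thus higher than in proliferating cells in all 3 irradiated groups and FOSL1 and FOSL2 lower. The 3 comparisons share the proliferating libraries. The call of FOSL2 with DMSO was lost at the same total (-0.04, adjusted p 0.582) and at the same upper quartile (-0.12, adjusted p 0.109).

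The genes whose pattern over the 12 libraries was most like that of each member were found among 9243 others with a mean of at least 100, by the root-mean-square difference of centred log2 values, where 0 means the same pattern. A member that varies little is close to any other flat gene, so the root-mean-square of the member's own centred values is given beside it. FOSL1 (own value 0.61) was most like EDNRA (0.07), an endothelin receptor gene, SFPQ (0.09) and CDK2 (0.09), which were at means of 1201, 8561 and 3298 in proliferating cells and 509, 3571 and 1370.3 with DMSO. JUNB (0.36) was most like AKAP8L (0.11), SMAD7 (0.12), an inhibitor of TGF-beta signalling, and PTPRU (0.12). EGR1 (0.32) was most like ANKRD10 (0.16), CD55 (0.17) and HEXIM1 (0.17). FOS (0.38) was most like SNAI1 (0.19), UNC93B1 (0.22) and ZFP36 (0.22), itself an immediate early gene, and FOSB (0.91) most like DDIT3 (0.32), TFPI2 (0.33) and IL6 (0.33). EGR2 (0.48) lay nearest to FILIP1L (0.13), RND3 (0.15) and MANBA (0.16), and FOSL2 (0.22) to ZNF770 (0.04). JUN, which varied least (0.088), lay nearest to INTS5 (0.03), and EGR3 (0.56), whose counts were low, had no neighbour closer than ZNF527 (0.42).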

How the data were processed

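RNA of 12 libraries was sequenced. The submitters' processing notes name Trimmomatic 0.38.1, HISAT2 2.2.1, featureCounts 2.0.3, FastQC 0.74, MultiQC, DESeq2 2.11.40.8 and the build hg38 (GRCh38), without roles or order. The authors deposited 1 table of gene counts divided by a size factor per library, a signal that is never negative. In it 160380 of 160380 values above 0 (100%) were whole multiples of 1 read at a tolerance of 0.01, so reads were recovered. The table ends at Entrez gene 140467, so totals are not full depths.

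Groups were taken from the column names. Limma 3.58.1 in R 4.3.3 was run with a variance trend on log2(value + 1), with 4 group means over all 12 libraries, for the 11242 genes with a mean of at least 10, with Benjamini-Hochberg adjustment and a call at an adjusted p under 0.05. It was tested on simulated data with the same dispersion for every gene and changes in higher genes only. That test therefore does not cover the low or more variable members. The log2(value + 1) scale understates the changes of low genes. Exon lengths and overlaps come from GENCODE v44 (hg38) and promoters from RefSeq (GRCh38.p14). The alternatives were pseudocounts of 0.1 and 5, testing every gene or only those averaging 50 or more, equal totals or upper quartiles, limma without a trend, fits of 2 groups, each library left out, and edgeR 4.0.16 and DESeq2 1.42.0 on the recovered reads. Counting error falls with depth, and members under about 20 normalized counts have the widest intervals.

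All 10 members are named. From each other list at most the 3 largest rises and 3 largest falls per comparison are named, where the gene was called, its higher group averaged 50 normalized counts or more and the groups did not overlap, and for each member up to 3 genes of like pattern. Some genes of these lists are counted but not reported by name here. HOOK2 was chosen after its values were seen. The members and lists were chosen with earlier results of these data known.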

Additional observations from a re-analysis of the deposited data

How the results depend on the processing

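No paired analysis was possible because the columns carry library numbers and no replicate numbers. Of 998 values of single members under the alternatives, 913 kept their direction and side of the threshold, 27 lost their call, 32 gained one and 26 changed sign. The count of members called with palbociclib against DMSO, 6, was 10 when totals were equal, where 54.3% of all genes were called, and 5 to 6 with 1 library left out. With ruxolitinib against DMSO it was 0, against 4 in the fit of 2 groups (16.4% of all genes) and 1 with DESeq2 (5.77%), and 0 whichever library was left out. With palbociclib against ruxolitinib it was 2, against 7 at equal totals (47.8% of all genes), 4 at equal upper quartiles (39.1%), 4 with edgeR (40.5%), 4 without A118 and A120 (35.7%), 1 without a variance trend (38.3%) and 1 to 4 with 1 library left out, so this count rests on the fit and on single libraries. The counts in the comparisons with proliferating cells stayed within 1.5 times: with 1 library left out they were 7 for DMSO, 6 for palbociclib and 5 to 6 for ruxolitinib.

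Every value that changed sign was small and not called in either fit. With DMSO against proliferating cells, JUN ranged from -0.0054 (without A118; also without A118 and A120) over -0.0046 (without A127) to 0.060 with 1 library left out, and JUND from -0.073 over -0.00028 (without A118; also without A118 and A120) to 0.18. With 1 library left out JUND ranged from -0.13 to 0.043 in palbociclib against DMSO, from -0.025 to 0.098 in ruxolitinib against DMSO and from -0.17 to 0.00031 between the inhibitors, where EGR2 ranged from -0.099 to 0.12 (0.12 also without A118 and A120). With palbociclib against proliferating cells, JUND ranged from -0.13 to 0.12 with 1 library left out and was 0.068 once upper quartiles were equal, 0.0081 with edgeR and 0.0089 with DESeq2. EGR1 ranged there from -0.18 to 0.050 and was 0.045 once upper quartiles were equal and 0.00083 with DESeq2. With ruxolitinib against proliferating cells, JUN was 0.12 at the same total and 0.087 once upper quartiles were equal, JUND ranged from -0.031 to 0.22 and EGR3 from -0.19 to 0.35. The cause was not tested. EGR2 and EGR3 have no value under the filter on a mean of at least 50. Depth limits EGR3 most, with values from 5.47 to 23.1 normalized counts.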
